A study of Mus musculus with 6 samples.

Results

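The nuclear genes for the respiratory chain and the ATP synthase were followed in Bmi1 KO and wild-type (WT) blood stem cells and their first descendants. They were chosen by symbol alone: every probe whose gene name in the array files begins with Nduf, Uqcr or Atp5, is Sdha, Sdhb, Sdhc or Sdhd, or begins with Cox followed by a digit from 4 to 8. The rule used no measured value, but it was set with earlier results of these data known. It took in 134 of the 55681 probes on the array, which carry 90 gene names, and 88 of these were among the 29134 features that could be tested. Of the 90 genes, 74 encode subunits of complexes I to V (36, 4, 8, 11 and 15 genes). Another 4 encode complex I assembly factors of the Ndufaf family, and 8 encode tissue-restricted isoforms of complex IV subunits. The last 4 match by name only. Cox4nb is now called Emc8 and belongs to a complex of the endoplasmic reticulum, Atp5s and Atp5sl are now called Dmac2l and Dmac2, and Cox7a2l takes part in joining complexes into supercomplexes. Ndufa4 was counted with complex IV, where its protein is now placed. The untestable genes, Cox7b2 and Cox8c, are isoforms best known from testis, and neither was well above background on any array in either channel.

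The groups were KO MPPs, KO HSCs, WT MPPs and WT HSCs, with 3 samples each. HSCs are hematopoietic stem cells and MPPs are multipotent progenitors, the cells that HSCs first give rise to. The labels state that both were sorted by FACS from C57BL6 mice aged 2 to 3 months, and they call the replicates biological. The deleted part of Bmi1, the markers that defined the sorting gates and the number of mice behind each sample were not stated in the sources used here. On each of the 6 arrays the red dye (Cy5) carried a KO sample and the green dye (Cy3) a WT sample of the same population, and no array had the dyes exchanged. In the KO over WT ratios, and in any contrast of the KO with the WT channel, dye and genotype therefore cannot be told apart. MPPs were compared with HSCs within a single dye. All arrays lay on 1 slide. The 3 HSC arrays and MPP replicate 1 were in the first row of that slide and MPP replicates 2 and 3 in the second.

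Oxidative phosphorylation makes ATP in mitochondria. Complex I takes electrons from NADH and complex II takes them from succinate; both pass them through ubiquinone to complex III, cytochrome c carries them to complex IV, and complex IV reduces oxygen. Complexes I, III and IV pump protons out of the matrix, and complex V, the ATP synthase, uses their return to make ATP. HSCs are known for relying largely on glycolysis at rest, and more active progenitors are known for greater use of mitochondrial respiration. Bmi1, a Polycomb protein that represses the Ink4a-Arf locus, is known from mouse thymocytes and other tissues to affect mitochondrial function. Subunits made from mitochondrial DNA are not analysed here.

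Median spot intensity lay between 124 and 206 in green and between 379 and 581 in red, and 72.5% to 83.9% of the spots on an array stood well above background. Precision is limited by the 3 arrays of a group. The brighter of the Bmi1 probes had log2 KO/WT ratios of 0.23, -0.69 and 0.48 on the MPP arrays and -0.39, -2.42 and -0.50 on the HSC arrays. The other had 0.93, 0.70 and -0.05 on the MPP arrays and 0.11, -1.66 and 1.36 on the HSC arrays. As the deleted part of Bmi1 is unknown, genotype was taken from the labels. Replicate arrays differed more for the respiratory genes than for most features. The SD of the log2 KO/WT ratio over 3 HSC arrays had a median of 1.05 over the 88 genes and 0.64 over all features, and over 3 MPP arrays these medians were 0.75 and 0.52. In the WT channel of the HSC arrays 42 of the 88 genes (47.7%) had an SD of the log2 level above 1, as did 19% of all features.

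MPPs had more of most of these transcripts than HSCs in both genotypes, but no single gene passed the test. Levels are background-corrected signals on the log2 scale, made comparable between arrays of 1 dye, and SE is the standard error of the limma fit. In the KO channel 67 of 88 genes were higher in MPPs, with a median difference of 0.58 on the log2 scale, and in the WT channel 68 of 88 were higher, with a median of 0.45. Over all features the medians were -0.08 (43.1% higher) and -0.09 (43.7% higher). Within the first slide row, which holds 1 MPP array, the medians over the 88 genes were 0.60 in KO cells, with 67 higher, and 0.39 in WT cells, with 54 higher. The difference was higher in MPPs in both channels for 57 of the 88 genes and lower in both for 10. With limma and Benjamini-Hochberg adjustment over all 29134 features, 0 of 88 genes had an adjusted p under 0.05 in either channel, where 0.522% of features passed in the KO channel and 0.419% in the WT channel. The smallest adjusted p among the respiratory genes was 0.0572 in KO cells, for Cox6a1, and 0.124 in WT cells, for Cox6a2. Unadjusted p was under 0.05 with a higher level in MPPs for 21 genes (23.9%, against 6.52% of all features) in KO cells and for 9 (10.2%, against 6.77%) in WT cells. With lower levels in MPPs these counts were 1 and 3, where 5.53% and 8.36% of features lay. In bulk RNA of sorted cells, fewer cells of a type and less RNA per cell cannot be told apart.

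The shift was even across arrays in the KO channel and uneven in the WT channel. Each genotype had its own dye, so this contrast cannot be assigned to genotype or to dye. Taking each gene's log2 level minus its mean over 6 arrays, the median over the 88 genes was 0.27, 0.22 and 0.32 on the KO MPP arrays, against -0.31, -0.48 and -0.14 on the KO HSC arrays. The groups did not overlap. In the WT channel it was 0.10, 0.13 and 0.48 for MPPs, against -0.20, -0.52 and 0.14 for HSCs, so that HSC replicate 3 lay above MPP replicates 1 and 2. Accordingly, 24 genes had all KO MPP values above all KO HSC values (27.3%, against 8.62% of all features), and 9 had all WT MPP values above all WT HSC values (10.2%, against 8.28%). The count in WT cells was therefore close to that of all features. None of the 9 was among the 24. These counts use the brightest probe of a gene. They include Atp5g3 in KO cells and Atp5o in WT cells, which were kept for testing only through MPP groups. Of the 24 genes 11 had further probes, and in 5 of the 11 every probe kept the groups apart. Atp5j, Atp5k, Atp5l, Ndufa3 and Sdhb were among those in which some probe did not. Of the 9 in WT cells 2 had further probes, Atp5c1 and Ndufb11, and in neither did every probe keep the groups apart. Without WT HSC replicate 3 the WT count was 26 of 88 (29.5%, against 13.7% of all features); it was 20 without MPP 1, 16 without MPP 2 and 15 without HSC 1 or HSC 2, where the shares over all features were 15.4%, 11.5%, 14.3% and 12.1%. It was 11 without MPP 3 (12.5%, against 10.6%). In KO cells the count lay between 26 (29.5%, against 11.7%) without MPP 1 and 36 (40.9%, against 16.2%) without HSC 3. For lower levels in MPPs without overlap the counts were 1 in KO cells (11.1% of all features) and 4 in WT cells (13.8%).

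**Figure D1:**
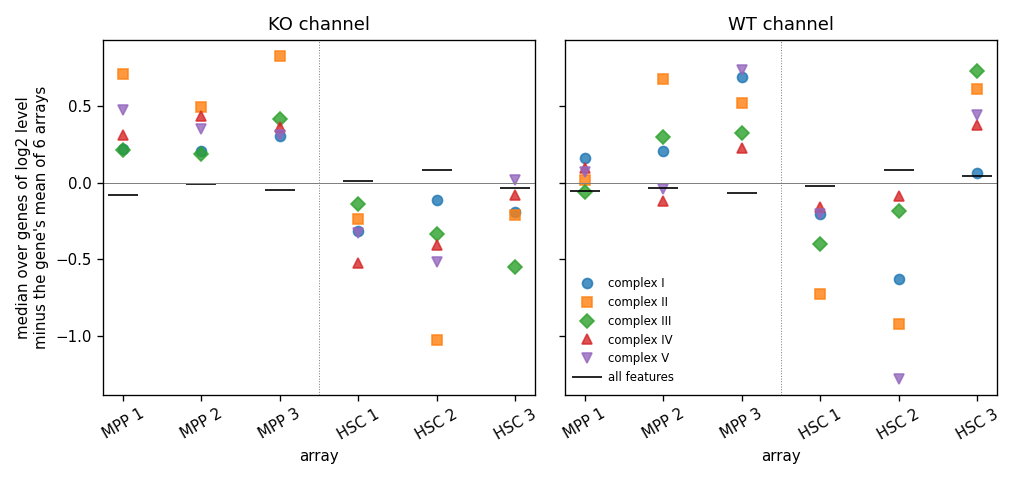
Median over the genes of each complex (coloured symbols) and over all features (black bars) of the log2 level minus the gene's mean of 6 arrays, on each array, in the KO channel (left) and the WT channel (right). All 5 complexes lie above 0 on the 3 KO MPP arrays. In the WT channel HSC replicate 3 lies among the MPP arrays for complexes II and V and above them for complexes III and IV. For complex I it lies below them, and HSC replicate 2 is lowest for complexes I, II and V.

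By complex, the ATP synthase and succinate dehydrogenase had the largest medians in KO cells. The median MPP minus HSC difference was 0.49 in KO cells and 0.66 in WT cells for complex I, with 27 and 30 of 36 genes higher in MPPs. For complex II it was 1.34 in KO cells and 0.78 in WT cells, with 4 of 4 genes higher in each. Complex III had medians of 0.50 and 0.26 with 7 and 5 of 8 genes higher in KO and WT cells. Complex IV had 0.65 in KO cells, with 9 of 11 genes higher, and 0.01 in WT cells, with 6 of 11 higher. Complex V had 0.87 in KO cells, with 12 of 15 higher, and 0.65 in WT cells, with 14 of 15 higher. Of the 24 genes without overlap in KO cells, 9 were of complex V, 6 of complex IV, 4 of complex I, 2 of complex II, 1 of complex III and 2 were assembly factors. The 4 Ndufaf assembly factors were all higher in MPPs, with medians of 1.02 in KO cells and 0.57 in WT cells. Only 1 of the 6 measured tissue isoforms of complex IV was higher in MPPs in each channel, with medians of -0.30 and -0.32. Whether complexes differ from each other was not tested.

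**Figure D2:**
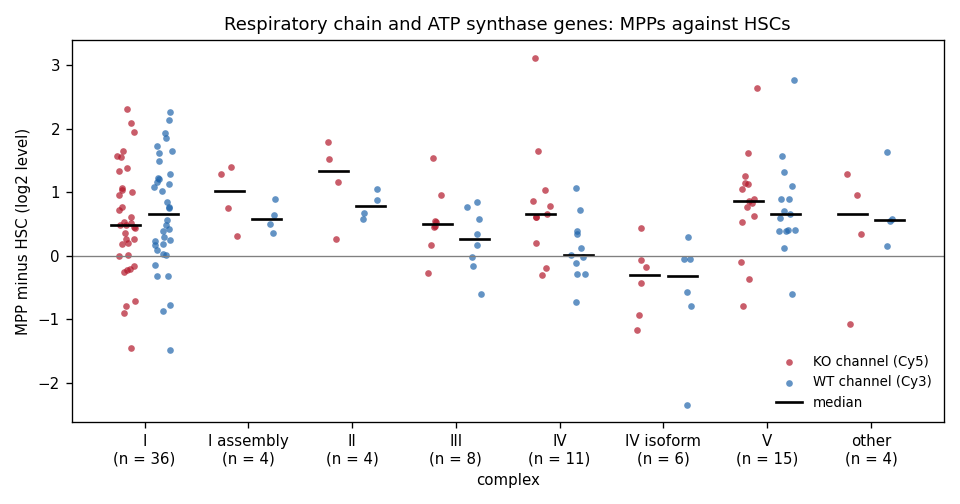
Difference between the mean log2 level in MPPs and in HSCs (3 arrays each) for each of the 88 genes, by complex, in the KO channel (red) and the WT channel (blue); black bars are medians. Complex II and V genes lie mostly above 0 in both channels, complex IV genes mostly above 0 in the KO channel, and the tissue isoforms of complex IV mostly below 0.

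Succinate dehydrogenase, complex II, also serves the tricarboxylic acid cycle. Sdhb, its iron-sulfur subunit, had log2 levels of 12.38, 12.78 and 12.68 in KO MPPs, against 11.44, 10.92 and 10.91 in KO HSCs. All 3 MPP values lay above all 3 HSC values, and the difference of 1.52 (SE 0.27) had an adjusted p of 0.0898. In the WT channel Sdhb had 10.54, 11.10 and 10.50 in WT MPPs, against 8.95, 9.43 and 12.01 in WT HSCs, with overlap through HSC replicate 3 and a difference of 0.59 (SE 0.80). A second, dimmer Sdhb probe further along the gene gave differences of 1.64 in KO cells and 1.67 in WT cells, but its KO levels overlapped between MPPs and HSCs. Sdhd, a membrane anchor subunit, had 12.71, 12.76 and 12.76 in KO MPPs, against 11.79, 9.91 and 11.16 in KO HSCs, without overlap and with a difference of 1.79 (SE 0.48) and an adjusted p of 0.229. Sdhc, the other anchor, had 12.92, 12.16 and 12.91 in KO MPPs, against 11.21, 10.95 and 12.35 in KO HSCs. Here MPP replicate 2 lay below HSC replicate 3, and the difference was 1.16 (SE 0.44) in KO cells and 1.05 (SE 0.57) in WT cells. Its second probe gave 1.18 and 0.85. Sdha, the flavoprotein that oxidises succinate, differed by 0.27 (SE 0.48) in KO cells, with overlap. The first 30 bases of the Sdhb probes, which show that different stretches of the transcript were read, are given here with their positions on mouse assembly mm9 (chromosome 4, 140529606 to 140529665, for the probe reported and chromosome 4, 140535052 to 140535108, for the other; plus strand).
Sdhb, reported probe: aaatccattgagccttatctgaagaagaag
Sdhb, second probe: tgtcaaacagctggagtctccctaagtaca

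In complex IV, cytochrome c oxidase, the largest difference was that of Cox6a1, the ubiquitous isoform of a small subunit. Its log2 levels were 11.06, 11.75 and 11.55 in KO MPPs, against 7.39, 9.11 and 8.48 in KO HSCs. Every KO MPP value lay above every KO HSC value, and the difference was 3.12 (SE 0.47) with an adjusted p of 0.0572. In the WT channel the same probe had 10.05, 9.02 and 9.17 in WT MPPs, against 7.62, 10.15 and 10.11 in WT HSCs, with the lowest and both of the highest values from HSC samples and a difference of 0.12 (SE 0.74). The single Cox6a1 probe lies on chromosome 5, 115795726 to 115795785 (mm9, minus strand) and begins as follows.
Cox6a1: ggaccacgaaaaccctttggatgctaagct

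Cox5a, a subunit facing the matrix, had 11.50, 11.77 and 11.93 in KO MPPs, against 9.85, 10.75 and 9.66 in KO HSCs. The groups did not overlap, and the difference was 1.65 (SE 0.35) with an adjusted p of 0.141. In the WT channel the Cox5a difference was -0.72 (SE 0.38), of opposite sign, with 9.13, 9.39 and 8.93 in WT MPPs, against 10.15, 9.14 and 10.33 in WT HSCs. Among the other subunits without overlap in KO cells, Cox6b1, which faces the intermembrane space, differed by 0.78 (SE 0.27), Cox6c by 0.61 (SE 0.27), Cox7b by 0.86 (SE 0.29) and Ndufa4 by 1.04 (SE 0.40). Cox6c had 13.32, 13.20 and 13.06 in WT MPPs, against 13.09, 12.19 and 12.17 in WT HSCs in the WT channel, where MPP and HSC values overlapped, with a difference of 0.71 (SE 0.32). Cox4i1, the largest nuclear-encoded subunit of the complex, differed by 0.65 (SE 0.58) in KO cells and 0.01 (SE 0.40) in WT cells, with overlap in both.

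In complex V the genes of the peripheral stalk, the membrane part and the catalytic head were mostly higher in MPPs. Atp5k, the small e subunit of the membrane part, had 12.05, 12.16 and 12.53 in KO MPPs, against 10.58, 7.89 and 10.36 in KO HSCs. The groups did not overlap, HSC replicate 2 was far below the rest, and the difference of 2.64 (SE 0.71) had an adjusted p of 0.233. That probe is placed on the Y chromosome in the files, as is a second Atp5k probe, whereas another lies on chromosome 5. The other probes gave KO differences of 1.12 and 1.07, and the value of Atp5k is uncertain, since probes of that name are placed on 2 chromosomes. Atp5f1, the b subunit of the stalk, had 13.19, 13.56 and 12.98 in KO MPPs, against 12.23, 11.37 and 12.97 in KO HSCs, without overlap and with a difference of 1.06 (SE 0.44). Its second probe gave 1.22. Atp5j, another stalk subunit, differed by 0.87 (SE 0.35) in KO cells and 0.89 (SE 0.78) in WT cells, but its second probe gave -0.14 and 0.05. Atp5o, the stalk protein known as OSCP, had the largest difference of the WT channel, with 8.16, 10.30 and 10.15 in WT MPPs, against 7.93, 6.0 and 6.39 in WT HSCs and a difference of 2.76 (SE 0.75) and an adjusted p of 0.249. The WT groups did not overlap, but Atp5o was well above background on 2 of 3 HSC arrays in each channel. Atp5o was kept for testing only through the MPP groups, so its non-overlap is no support for the shift. Its KO values overlapped, with a difference of 1.14 (SE 1.06). Of the catalytic head, 3 of 5 genes were higher in KO MPPs and 5 of 5 in WT MPPs. In KO cells Atp5a1 (alpha) differed by 0.82 (SE 0.35), Atp5b (beta) by 1.62 (SE 0.68) and Atp5d (delta) by 1.14 (SE 0.39). Lower in KO MPPs were Atp5c1 (gamma) by -0.10 (SE 0.27) and Atp5e (epsilon) by -0.79, the lowest difference of complex V in KO cells.

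The c ring of the ATP synthase, the rotor that protons turn, is encoded by Atp5g1, Atp5g2 and Atp5g3, which give the same mature protein. Atp5g1 had 15.95, 16.08 and 16.14 in KO MPPs, against 16.89, 16.37 and 16.02 in KO HSCs, overlapping, and a difference of -0.37 (SE 0.29). Atp5g2 had 11.16, 10.82 and 11.36 in KO MPPs, against 11.68, 10.28 and 9.48 in KO HSCs, a difference of 0.63 (SE 0.56). Atp5g3 had 8.20, 7.76 and 8.56 in KO MPPs, against 7.53, 6.47 and 6.73 in KO HSCs, without overlap, a difference of 1.26 (SE 0.37) and only 1 HSC array well above background in each channel. Only in KO MPPs was Atp5g3 well above background on all 3 arrays, and it was kept for testing through that group. Its non-overlap in KO cells is therefore no support for the shift. In WT cells the differences of Atp5g1, Atp5g2 and Atp5g3 were -0.60 (SE 0.34), 0.12 (SE 0.46) and 0.40 (SE 0.65), all with overlap. The levels behind them were 14.87, 14.12 and 13.86 in WT MPPs, against 14.57, 15.05 and 15.04 in WT HSCs for Atp5g1, where HSC replicates 2 and 3 lay above every MPP sample. The second probes of Atp5g1 and Atp5g2 gave 0.68 and -0.90 in WT cells and 0.17 and -0.55 in KO cells, each of the other sign than the reported probe. With that Atp5g1 probe and the reported probes of the other genes, all 3 differences are positive in both channels. With the second Atp5g2 probe, the Atp5g2 difference is negative in both. The signs of Atp5g1 and Atp5g2 therefore rest on the probe. The reported Atp5g1 probe carries an Ensembl accession and the second a RefSeq one. The reported one ends in letters that resemble the rodent B2 repeat, and the second in a simple repeat, so the value of Atp5g1 is uncertain. Their last 30 bases are printed for that reason (mm9, minus strand, on chromosome 11, 95930317 to 95930376, and on chromosome 11, 95934315 to 95934374).
Atp5g1, end of the reported probe: gagttggctcagtggttaagagcgccgact
Atp5g1, end of the second probe: tttaccattaaacaacaacaacaacaacaa

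In complex III Uqcr10 was higher in KO MPPs and lower in WT MPPs, without overlap in either channel. Uqcr10, a small subunit of the cytochrome bc1 complex, had 12.78, 13.57 and 13.15 in KO MPPs, against 12.26, 11.40 and 11.24 in KO HSCs, with no overlap and a difference of 1.54 (SE 0.37) and an adjusted p of 0.192. In WT cells it had 11.51, 11.73 and 11.75 in WT MPPs, against 12.09, 12.24 and 12.49 in WT HSCs, again with no overlap but lower in MPPs, at -0.61 (SE 0.24) and an adjusted p of 0.317. The other Uqcr10 probes gave WT differences of -0.04 and -0.16, with overlap. The core proteins Uqcrc1 and Uqcrc2 differed by 0.54 (SE 0.49) and 0.45 (SE 0.46) in KO cells and by 0.76 (SE 0.68) and 0.84 (SE 0.75) in WT cells. Uqcrfs1, the Rieske iron-sulfur protein, differed by 0.95 (SE 0.50) in KO cells and was well above background on 2 of 3 KO HSC arrays. Uqcrq differed by -0.28 (SE 0.50), the only complex III gene lower in KO MPPs by its reported probe; its second probe gave 0.05.

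Complex I had the most genes and the widest range. In KO cells its differences ran from -1.45 for Ndufb2 to 2.31 for Ndufa6, and in WT cells from -1.48 for Ndufv1, the NADH-binding subunit, to 2.26 for Ndufb3. Ndufv1 was well above background on 2 of 3 WT MPP arrays, and a second Ndufb2 probe gave -0.48 in KO cells. Ndufa9, an accessory subunit near the quinone site, had 11.20, 10.79 and 10.96 in KO MPPs, against 9.92, 9.64 and 10.16 in KO HSCs, without overlap and with a difference of 1.07 (SE 0.26) and an adjusted p of 0.195. Ndufaf4, an assembly factor, differed by 1.29 (SE 0.35) and an adjusted p of 0.23, with 12.50, 12.07 and 12.81 in KO MPPs, against 11.30, 10.63 and 11.58 in KO HSCs and no overlap, and its second probe gave 1.5. Ndufa3, an accessory subunit of the membrane arm, differed by 1.57 (SE 0.50) in KO cells without overlap, and its other probes gave 1.88 and 1.00. Ndufb5, also of the membrane arm, differed by -0.71 (SE 0.35) in KO cells and -0.88 (SE 0.39) in WT cells with the reported probe, whereas the other 3 probes were positive in both, at 0.05, 0.27 and 1.36 in KO cells and 0.70, 0.58 and 0.95 in WT cells. In the WT channel Ndufs4, an accessory subunit of the matrix arm whose loss in mice causes a Leigh-like disease, had 12.30, 12.26 and 11.50 in WT MPPs, against 10.82, 8.96 and 9.85 in WT HSCs. The 3 MPP values lay above the HSC values, with a difference of 2.14 (SE 0.52) and an adjusted p of 0.218. In KO cells Ndufs4 overlapped, at 0.21 (SE 0.37). Ndufs5, an accessory subunit, had 9.13, 9.81 and 10.29 in WT MPPs, against 7.82, 7.47 and 8.97 in WT HSCs and a difference of 1.65 (SE 0.49), without overlap. Ndufb11, a membrane-arm subunit, had 10.78, 11.54 and 12.11 in WT MPPs, against 9.37, 9.5 and 10.704 in WT HSCs, without overlap, and a difference of 1.61 (SE 0.50); its other probes gave 1.48 and 2.16. Ndufb4, also of the membrane arm, was lower in WT MPPs without overlap, with 6.39, 5.97 and 6.64 in WT MPPs, against 6.85, 7.14 and 7.31 in WT HSCs (well above background on 2 of 3 WT MPP arrays) and a difference of -0.77 (SE 0.28), but a second probe gave 0.02.

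Several complex IV subunits exist as a general isoform and a tissue-restricted one, and 5 of the 6 measured restricted forms had lower levels in MPPs in each channel. Cox6a2, the heart and muscle counterpart of Cox6a1, had 8.10, 7.15 and 7.35 in WT MPPs, against 9.16, 10.37 and 10.11 in WT HSCs. The WT groups did not overlap, and the difference of -2.35 (SE 0.43) had the smallest adjusted p of the WT channel (0.124). In KO cells Cox6a2 had 9.46, 9.78 and 9.39 in KO MPPs, against 11.66, 10.61 and 9.15 in KO HSCs, with overlap and a difference of -0.93 (SE 0.61). Cox4i2, the lung isoform known to respond to low oxygen, was lower in MPPs without overlap in both genotypes. It had 8.70, 8.61 and 8.57 in KO MPPs, against 9.5, 10.40 and 9.48 in KO HSCs, at -1.17 (SE 0.32), and 7.70, 7.31 and 7.64 in WT MPPs, against 8.67, 8.58 and 7.76 in WT HSCs, at -0.79 (SE 0.33), with adjusted p of 0.239 in KO cells and 0.33 in WT cells. It was the 1 gene of the 88 that lay lower without overlap in both channels. The Cox6a2 probe (chromosome 7, 135349160 to 135349219, minus strand, mm9) begins as follows.
Cox6a2: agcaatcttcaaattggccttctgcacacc

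The other restricted forms and their general partners had smaller differences. Cox7a1, the heart and muscle form, differed by 0.43 (SE 0.35) in KO cells and -0.58 (SE 0.85) in WT cells, and Cox7a2, the general form, by 0.21 (SE 0.33) and -0.28 (SE 0.36). Cox6b2, best known from testis, differed by -0.43 (SE 0.91) in KO cells and 0.30 (SE 0.35) in WT cells. Cox8b, the heart and muscle form, differed by -0.07 (SE 0.24) and -0.06 (SE 0.47), and was well above background on 1 of 3 WT MPP arrays. Cox8a, the general form, differed by -0.19 (SE 0.45) in KO cells and 0.40 (SE 0.46) in WT cells, and its second probe by -0.62 and 0.26. Ndufa4l2, a hypoxia-induced relative of Ndufa4, differed by -0.18 (SE 0.26) and -0.06 (SE 0.25). All of these overlapped between MPPs and HSCs in both channels.

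Genes of other cell types also differed between the samples. HSC markers were lower in MPPs for 8 of 10 genes in KO cells (median -1.29) and 9 of 10 in WT cells (median -0.85), and MPP markers were higher for 4 of 5 genes in each. B lineage markers were higher in KO MPPs for 8 of 8 genes, with a median difference of 4.44. Their mean log2 level lay between 11.02 and 13.72 on the KO MPP arrays, against 8.24 to 9.0 on the KO HSC arrays, and between 7.87 and 8.46 in WT MPPs, against 7.26 to 7.88 in WT HSCs. The B lineage median on the KO MPP arrays, relative to each gene's mean, was 0.29, 2.48 and 3.63, and that of the respiratory genes was 0.27, 0.22 and 0.32. Neutrophil and monocyte markers were higher in KO MPPs for 7 of 9 genes (median 2.13) and in WT MPPs for 6 of 9 (median 0.40), and erythroid markers for 4 of 6 in KO cells (median 1.51) and 0 of 6 in WT cells. Megakaryocyte markers were higher in MPPs for 1 of 4 genes in KO cells (median -1.04) and 0 of 4 in WT cells (median -0.70). T and NK cell markers were higher in MPPs for 1 of 7 genes in KO cells and 2 of 7 in WT cells. Their part in the respiratory gene difference was not tested.

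Between genotypes there was no common direction. In HSCs 41 of 88 genes had a KO over WT ratio above 1, with a median log2 ratio of -0.08, and in MPPs 47 of 88, with a median of 0.03. All features had medians of 0.00 and 0.01, with 50.2% and 50.7% above 0. No respiratory gene passed the limma test in either population, nor did any of the 29134 features (0%). The smallest adjusted p of the 88 was 0.652 in HSCs and 0.965 in MPPs. In HSCs 5 genes were higher and 4 lower at an unadjusted p under 0.05 (3.95% and 3.45% of all features, 7.4% in all), and in MPPs 1 was higher, Cox5a, and 1 lower, Atp5s (2.49% and 2.62%, 5.1% in all). The ratio had 1 sign on all 3 HSC arrays for 16 genes with KO higher (18.2%, against 13.3% of all features) and 10 with KO lower (11.4%, against 13.6%). On the MPP arrays the counts were 11 (12.5%, against 14.8%) and 4 (4.55%, against 14.2%). The median of HSCs has no settled sign: scaling arrays by their median instead of loess gave 0.42, where the median of all features moved to 0.29, and it was 0.05 without HSC 1 and 0.09 without HSC 3.

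By complex the medians had both signs. In HSCs the median log2 KO/WT ratio was 0.08 for complex I, -0.38 for complex II, -0.32 for complex III, -0.18 for complex IV and 0.40 for complex V. In MPPs it was -0.06, 0.33, -0.03, 0.34 and 0.01 for the same complexes. In complex IV 3 of 11 genes had a ratio above 1 in HSCs and 9 of 11 in MPPs. Differences between complexes were not tested.

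The smallest p of the KO over WT comparison in HSCs belonged to negative ratios. Cox6a1 had log2 ratios of -1.45, -2.35 and -2.99 on HSC replicates 1, 2 and 3, a mean of -2.26 (SE 0.44) and an adjusted p of 0.652. Uqcr10 had -1.13, -2.16 and -2.63, a mean of -1.97 (SE 0.33) and an adjusted p of 0.652. Both were lower in KO on all 3 arrays, but on HSC replicate 2 the other Uqcr10 probes had ratios of the other sign. These ratios and the KO MPP over HSC differences above share the KO HSC samples and are not separate evidence. Atp5k had -0.11, -1.21 and -2.40 and a mean of -1.24 (SE 0.45), but its other probes gave means of -0.14 and -0.24. Cox4nb, the gene now called Emc8, had -1.29, -0.65 and -0.65 and a mean of -0.86 (SE 0.31).

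Positive ratios in HSCs were led by complex I. Ndufa11, a membrane-arm subunit, had 0.44, 3.45 and 1.71 with a mean of 1.87 (SE 0.59). Ndufs4 had 0.23, 3.41 and 1.80 with a mean of 1.81 (SE 0.60), and Ndufv2, an iron-sulfur core subunit of the NADH-oxidising module, had 0.30, 1.55 and 2.89 with a mean of 1.58 (SE 0.54). Ndufv2 was well above background on 2 of 3 WT HSC arrays. All 3 genes were higher in KO on every HSC array, yet replicate 1 gave far smaller ratios than 2 or 3. Ndufa12, an accessory subunit of the matrix arm, was more even, with 1.24, 0.46 and 0.90 and a mean of 0.87 (SE 0.28). Ndufc1 had 0.84, 1.80 and 0.30 and a mean of 0.98 (SE 0.36). The adjusted p was 0.664 for each of these 5 genes. In complex II Sdha had 0.11, 2.25 and 0.21 and a mean of 0.86 (SE 0.46), which was 0.16 without HSC replicate 2.

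In MPPs Cox5a had the smallest p. Its log2 ratios were 0.99, 1.05 and 1.70 on MPP replicates 1, 2 and 3, with a mean of 1.25 (SE 0.46) and an adjusted p of 0.965. Atp5f1 had 0.50, 1.96 and 0.28, a mean of 0.91 (SE 0.40) that was 0.39 without MPP replicate 2. Sdhd had 1.19, 0.35 and 0.69 and a mean of 0.74 (SE 0.36). All 3 genes were higher in KO on every MPP array, as was Cox4i1 with 0.78, 0.07 and 0.83 and a mean of 0.56 (SE 0.29). Lower on every MPP array were Ndufa2, an accessory subunit, with -0.25, -2.60 and -2.31 and a mean of -1.72 (SE 0.73), Cox8a with -0.16, -0.73 and -0.70 and a mean of -0.53 (SE 0.33), Ndufv3 with -0.42, -0.53 and -0.33 and a mean of -0.43 (SE 0.28) and Cox6b2 with -0.52, -0.70 and -0.95 and a mean of -0.72 (SE 0.61). Uqcrq had 0.36, -3.05 and -1.41 and a mean of -1.37 (SE 0.79), but MPP replicate 1, the MPP array in the first slide row, was positive at 0.36. Atp5s, the gene now called Dmac2l, had 0.21, -4.16 and -2.31 and a mean of -2.09 (SE 0.78), with replicate 1 of the other sign. B lineage markers were higher in KO than in WT MPPs for 8 of 8 genes, with a median log2 ratio of 3.62, and their part in these ratios was not tested.

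**Figure D3:**
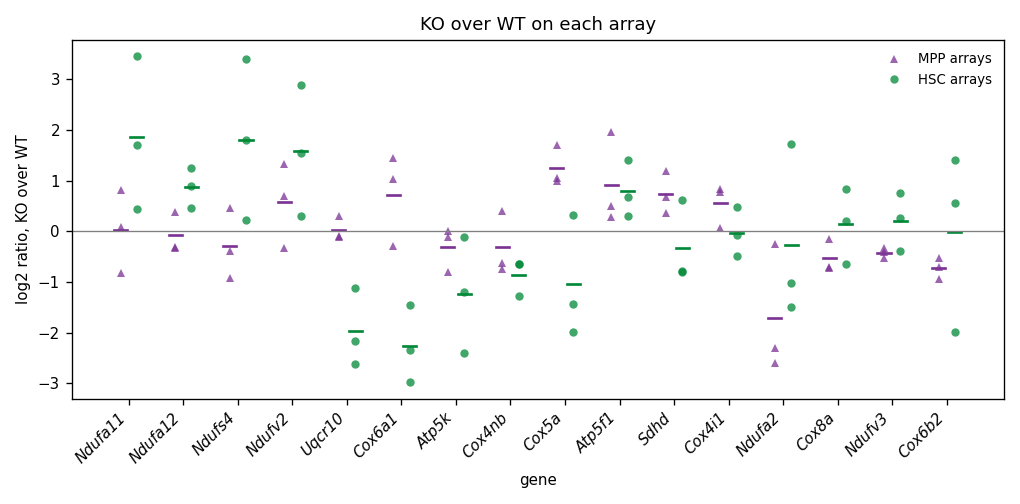
Log2 KO over WT ratio on each array for genes named in the KO over WT comparisons: MPP arrays (triangles) left of HSC arrays (circles), with the mean of 3 as a bar. Uqcr10, Cox6a1 and Atp5k lie below 0 on all HSC arrays and Cox5a, Atp5f1, Sdhd and Cox4i1 above 0 on all MPP arrays.

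The KO effect in MPPs minus that in HSCs, from which a constant dye effect cancels, passed for 0 of 88 genes (0% of all features; smallest adjusted p 0.964). It was above 0 for 47 of 88 genes, against 50.8% of all features. At an unadjusted p under 0.05 it was higher for 3 genes and lower for 3, where 1.69% and 2.35% of all features lay, 4.04% in all. The ratios did not overlap between populations for 3 genes with the larger value in MPPs (3.41%, against 3.81% of all features) and 3 with the larger value in HSCs (3.41%, against 4.29%), so these counts were close to the background. Cox6a1 had ratios of -0.30, 1.45 and 1.02 in MPPs, against -1.45, -2.35 and -2.99 in HSCs, a difference of 2.99 (SE 0.62). Uqcr10 had -0.10, 0.30 and -0.11 in MPPs, against -1.13, -2.16 and -2.63 in HSCs, a difference of 2.00 (SE 0.47). Cox5a had 0.99, 1.05 and 1.70 in MPPs, against -1.43, 0.31 and -1.99 in HSCs, a difference of 2.28 (SE 0.64). In each of the 3 every MPP array lay above every HSC array by the reported probe. The other Uqcr10 probes overlapped, being positive on HSC replicate 2 with MPP means of -0.27 and -0.18. Ndufa12 went the other way, with -0.33, -0.31 and 0.39 in MPPs, against 1.24, 0.46 and 0.90 in HSCs, and a difference of -0.95 (SE 0.39). So did Atp5c1, with 0.11, -0.08 and -0.80 in MPPs, against 0.38, 0.93 and 0.54 in HSCs, and -0.87 (SE 0.39), and Ndufa4l2, with a small difference of -0.15 (SE 0.30). A second Atp5c1 probe overlapped, with -0.07, -0.68 and 0.67 in MPPs, against 0.30, -0.18 and 0.72 in HSCs. The difference was -2.09 (SE 0.84) for Ndufs4, with overlap, and 1.07 (SE 0.51) for Sdhd. No respiratory gene had one sign on all MPP arrays and the opposite sign on all HSC arrays, a pattern found for 1.88% of all features.

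Averaged over both populations, 0 of 88 genes passed (0% of all features; smallest adjusted p 0.567). The mean was above 0 for 42 of 88 genes, against 50% of all features. At an unadjusted p under 0.05 it was higher for 3 genes and lower for 5, where 4.49% and 3.88% of all features lay, 8.36% in all. Only Atp5f1 and Ndufa4l2 had a positive ratio on all 6 arrays (2.27%, against 3.26% of all features), and 0 had a negative ratio on all 6 (3.3%). Atp5f1 had 0.50, 1.96 and 0.28 in MPPs and 0.29, 1.40 and 0.68 in HSCs, with a mean of 0.85 (SE 0.28) and an adjusted p of 0.58. Ndufa4l2 had the most even ratios of the genes named, 0.10, 0.26 and 0.26 in MPPs and 0.35, 0.38 and 0.33 in HSCs, with a mean of 0.28 (SE 0.15). Uqcr10 had the smallest p, with a mean of -0.97 (SE 0.23) made of 0.03 in MPPs and -1.97 in HSCs. Ndufv2, Cox6c and Sdha had means of 1.08 (SE 0.38), 0.61 (SE 0.25) and 0.52 (SE 0.33).

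How far a ratio on 1 array can be trusted as a reading of that RNA was seen from repeated and overlapping probes. The probe of Uqcrc2, a core protein of complex III, was printed on 10 spots of each array, of which 7 to 10 had usable values. Within an array the spots had SDs of the log2 ratio between 0.0281 and 0.0632. Their means were -0.26, 0.22 and -0.21 on the MPP arrays and 0.04, 2.93 and -1.64 on the HSC arrays. Between arrays the SD was 0.264 for MPPs and 2.31 for HSCs, so the HSC replicates differed by far more than the spots of 1 array. The probe (chromosome 7, 127802599 to 127802658, plus strand, mm9) begins as follows.
Uqcrc2: cttttctcgacgagttataacacatgcgtg

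**Figure D4:**
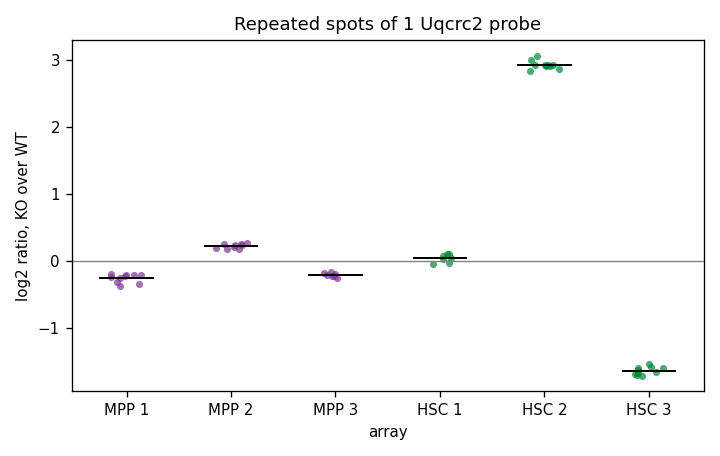
Log2 KO over WT ratio of each usable spot of 1 Uqcrc2 probe on the 6 arrays, with the mean of the spots as a black bar. Spots of an array lie together, while HSC replicates 2 and 3 lie at 2.93 and -1.64.

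Across the 30 genes with several probes, pairs that shared at least 30 bases read more alike than pairs that did not. The median over 14 such pairs of 8 genes of the mean absolute difference in log2 ratio was 0.383, and over 47 other pairs of 23 genes it was 0.73. The MPP minus HSC difference had 1 sign within the pair for 14 of 14 overlapping pairs in KO cells and 13 of 14 in WT cells, and for 37 and 33 of the 47 others. The pairs of a gene share its samples and are not independent. Uqcrb, the ubiquinone-binding protein of complex III, had 3 probes with HSC means of 0.73, 0.81 and 0.68, and on each array they lay close together. For Uqcr10 the reported probe and the other probes agreed in the HSC mean (-1.97, -2.20 and -2.18) but not on each array. On HSC replicate 2 the reported probe read -2.16 and the others 1.83 and 1.65, and on HSC replicate 3 they read -2.63, -5.61 and -5.45. The same sign on all 3 HSC arrays therefore holds for 1 of the 3 Uqcr10 probes. Of 6 closely spaced probes of Atp5l, the g subunit of the ATP synthase, 5 gave positive HSC means and A_55_P2067682 gave -0.80. The beginnings of the Uqcr10 and Uqcrb probes follow, with capitals for bases printed in both beginnings of an overlapping pair. The pairs share 53 bases in Uqcr10 and 49 in Uqcrb, so the small letters of each first probe are shared too. All lie on the minus strand of mm9. The Uqcr10 probes are on chromosome 11, 4601972 to 4602031, on chromosome 11, 4601979 to 4602038 and, for the reported one, on chromosome 11, 4604252 to 4604311. The Uqcrb probes are on chromosome 13, 67001654 to 67001713, and chromosome 13, 67001665 to 67001724.
Uqcr10, first probe: ACTTCTGCTGTGTTTGAGTACAGctgtcag
Uqcr10, probe shifted by 7 bases: cagactcACTTCTGCTGTGTTTGAGTACAG
Uqcr10, reported probe: acatgtcgttgccgacgatcccttcgcgtc
Uqcrb, first probe: AGGAGAGAGAAGAGTGGGCaaagaagtgat
Uqcrb, probe shifted by 11 bases: tcgggaaagaaAGGAGAGAGAAGAGTGGGC

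**Figure D5:**
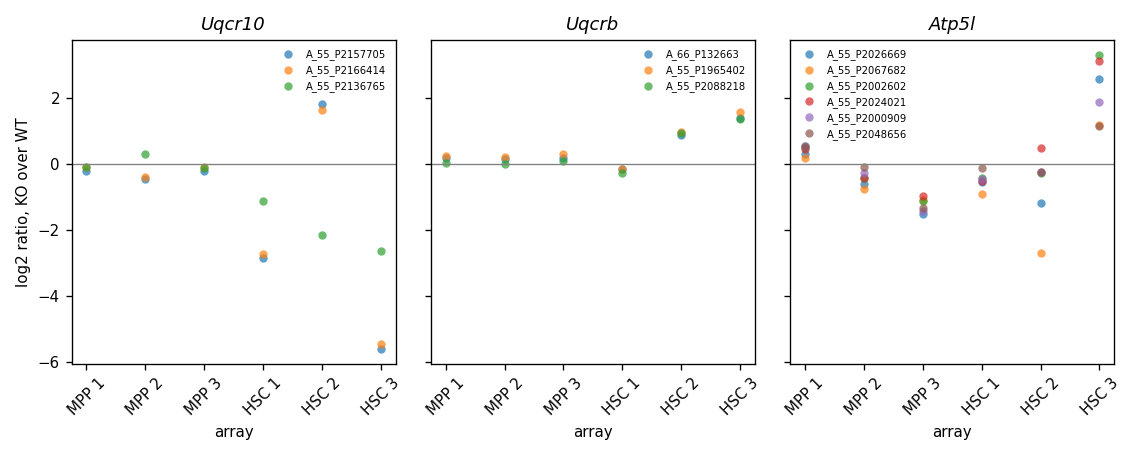
Log2 KO over WT ratio on each array for every usable probe of Uqcr10 (3 probes), Uqcrb (3) and Atp5l (6), one colour per probe. The Uqcrb probes lie together on all arrays, and the Uqcr10 probes split on the HSC arrays, with 1.83, 1.65 and -2.16 on HSC replicate 2.

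Other named genes also had probes that differed. Sdhb ratios on the HSC arrays were 0.93, 0.21 and -2.45 for the reported probe and -2.15, 2.20 and 1.55 for the second. For Ndufv3 the 3 probes gave MPP minus HSC differences of -0.97, 0.40 and 1.27 in WT cells, the second being the reported one. For Cox5b the reported probe lies on chromosome 15 and another on chromosome 1, and the values of that gene are uncertain.

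Genes of the respiratory chain are known targets of nuclear respiratory factor 1 (NRF1) and of GABP, an ETS factor also called NRF2, and the RefSeq promoters (GRCm38.p6) were searched for their core letters. The window was the 250 bases before the start, read on both strands, and 74 of the 90 genes matched an entry. GCGCATGC, from the NRF1 site, was found in 9 of the 74 (12.2%, against 2.56% of all 27025 genes with a promoter), and CCGGAAG, the ETS core, in 13 (17.6%, against 7.83%). AAGATGGC, from the YY1 site, was found in 2 (2.7%, against 1.83%), and CCAAT, bound by NF-Y, in 34 (45.9%, against 37.5%). Of the 24 genes higher in KO MPPs without overlap, 21 matched an entry, and 5 of these held the NRF1 letters and 6 the ETS core. A match is a description of the letters and does not show binding. The NRF1 and ETS letters do not overlap each other in the windows printed here, while the NRF1 letters of Cox6a1 match on both strands at overlapping positions. The windows are shown for 3 of the 24 genes, with motif letters in capitals: Sdhb (chromosome 4, 140961021 to 140961270, plus strand), Cox6a1 (chromosome 5, 115348959 to 115349208, minus strand) and Sdhd (chromosome 9, 50603850 to 50604099, minus strand).
Sdhb promoter, with NRF1 and CCAAT letters: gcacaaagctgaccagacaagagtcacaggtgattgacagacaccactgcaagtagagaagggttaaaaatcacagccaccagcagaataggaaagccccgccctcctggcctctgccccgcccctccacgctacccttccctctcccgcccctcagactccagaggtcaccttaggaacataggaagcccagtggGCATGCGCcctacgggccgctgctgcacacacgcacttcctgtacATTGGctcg
Cox6a1 promoter, with NRF1, CCAAT and ETS letters: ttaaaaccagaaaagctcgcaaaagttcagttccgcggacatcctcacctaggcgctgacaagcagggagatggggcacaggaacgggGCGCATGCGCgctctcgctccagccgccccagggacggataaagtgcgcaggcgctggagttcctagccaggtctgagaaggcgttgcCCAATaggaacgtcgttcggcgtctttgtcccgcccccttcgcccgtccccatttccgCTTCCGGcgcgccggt
Sdhd promoter, with ETS letters: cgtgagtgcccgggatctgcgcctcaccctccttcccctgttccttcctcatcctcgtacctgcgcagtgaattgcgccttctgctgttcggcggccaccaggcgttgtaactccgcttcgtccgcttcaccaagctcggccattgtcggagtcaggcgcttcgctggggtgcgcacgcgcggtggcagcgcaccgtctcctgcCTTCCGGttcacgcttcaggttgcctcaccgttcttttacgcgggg

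Genes that work beside the complexes were compared between MPPs and HSCs in the same way, where 43.1% of all features were higher in KO MPPs and 43.7% in WT MPPs. Among regulators of mitochondrial gene expression, such as the transcription factor Tfam and the coactivators Ppargc1a and Ppargc1b, 18 of 22 were higher in KO MPPs (median 0.54) and 21 of 22 in WT MPPs (median 0.77). One of them, Polg2, the accessory subunit of the mitochondrial DNA polymerase, passed the test in WT cells (0.419% of all features), with a difference of 3.81 and an adjusted p of 0.0296. Polg2 was not among the features well above background on all arrays, so that alternative could not be read for it. The direction held under every other alternative, but the call did not. Polg2 passed also with median scaling (adjusted p 0.0214). Its adjusted p lay between 0.0532 and 0.368 under the others that kept more than 1 array in each group. Among these were leaving out any 1 replicate, a replicate block and slide row as a term. In the first slide row alone, with 1 MPP array, the difference was 4.02. Tfb1m, a mitochondrial rRNA methyltransferase, had the smallest p of the list in KO cells (1.43, adjusted p 0.125). Tricarboxylic acid cycle and pyruvate dehydrogenase genes were higher in KO MPPs for 20 of 25 (median 0.41) and in WT MPPs for 17 of 25 (median 0.45), with the smallest p for Mpc2, a pyruvate carrier, in KO cells (1.85) and for Idh3b, an isocitrate dehydrogenase subunit, in WT cells (0.79). Assembly factors of complexes II to V were higher for 24 of 31 (0.26) in KO and 22 of 31 (0.51) in WT cells, and those of complex I for 7 of 13 (0.31) and 9 of 13 (0.51). The list for complex I holds the 4 Ndufaf genes already described, and of the other 9 genes 3 were higher in KO MPPs (median -0.10) and 5 in WT MPPs (median 0.51). Electron carriers and ubiquinone synthesis showed 10 of 18 higher (0.14) in KO and 9 of 18 (-0.04) in WT cells. Oxidant detoxification showed 6 of 11 (0.02) and 8 of 11 (0.44). Glycolysis genes were higher for 13 of 21 (0.06) in KO cells and 17 of 21 (0.45) in WT cells, with the smallest p for Ldhb, a lactate dehydrogenase, in KO cells (-1.46) and for Hk3, a hexokinase, in WT cells (1.84). In none of these lists did a gene pass in a KO over WT comparison or in the KO channel. All of these lists can be read only against the all-feature medians of -0.08 in KO and -0.09 in WT cells.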

How the data were processed

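RNA was read on 6 dual-colour Agilent arrays. Per the file headers, the deposited files hold the intensity of each spot and its local background in both channels from Feature Extraction 10.7.3.1, while the submitters' processing notes name 8.5.1.1; which is right was not settled. The deposited log ratio is the log10 of red (KO) over green (WT) after the software's background and dye correction, per the file headers, and the series table holds the same log10 values. The deposited marks for spots well above background, non-uniform or outlying were used as filters.

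Mean intensities were background-corrected with normexp (offset 50, limma 3.58.1, R 4.3.3, data.table version 1.17.8, jsonlite 2.0.0). Log2 ratios were loess-normalized within arrays, and log2 channel levels were quantile-normalized between arrays within each dye. Control and marked spots were left out. A probe was kept when well above background on all 3 arrays of at least 1 of 4 groups, which left 44641 probes; the brightest probe of a name gave 29134 features. Each comparison was fitted in limma with lmFit and eBayes over the 6 arrays, and p-values were adjusted by Benjamini-Hochberg over all features (threshold 0.05). The pipeline was tested on simulated data. Members were fixed by symbol and by no measured value, but members, lists and tests were chosen with earlier results of these data known. Genes named were the 4 per direction with the smallest p and the same sign on every array or no overlap, since none passed, the smallest p of each complex, the isoform pairs and, among genes so named, those whose probes differed by more than 1. Values of further probes are printed for many but not all named genes. Atp5s and the other genes given only a difference were chosen after their values were seen or to fill out a complex. Alternatives were Agilent's processed values, median scaling, other filters, the mean of probes, slide row, a replicate block and leaving out each replicate. RefSeq symbols were matched to 27235 probes; other names are those of the design. Exon positions were not looked up, as no mm9 annotation was used here.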

Additional observations from a re-analysis of the deposited data

How the results depend on the processing

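No respiratory gene passed in any comparison under any alternative run, with arrays left out included. Of the values recomputed for the comparisons, 179 stayed within the replicate spread or within 1.5 times the count and 17 did not. The 179 include counts of genes passing, which stayed the same because none passed, and values that a replicate block could not change. With median scaling the median KO over WT ratio was 0.42 in HSCs, 0.37 in MPPs and 0.41 for their mean, where the medians of all features were 0.29, 0.26 and 0.28, and the median MPP minus HSC difference was 0.72 in KO and 0.82 in WT cells. The HSC median was -0.0057 among genes well above background on all arrays and -0.017 with the mean of probes. Within slide row 1, with 1 MPP array left, 42 genes were higher in MPPs without overlap in KO cells (47.7%, against 18.6% of all features). In WT cells 26 were (29.5%, against 18.4%). The median differences were 0.60 and 0.39. With slide row as a term they had to be the same, since the second row holds only MPP arrays. Uqcrq in MPPs then turned to 0.36 and Sdhc in WT cells to -0.035; with 1 MPP array in that row, the value rests on MPP replicate 1.

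Leaving out each replicate gave medians from -0.088 to 0.088 for KO over WT in HSCs, from -0.06 to 0.14 in MPPs, from -0.11 to 0.11 for their difference and from -0.09 to 0.08 for their mean, so these medians have no stable sign. For MPPs over HSCs they ran from 0.52 to 0.68 in KO cells and from 0.25 to 0.59 in WT cells. Genes without overlap numbered 26 to 36 in KO cells and 11 to 26 in WT cells, and genes higher in MPPs 66 to 69 and 59 to 67. With 2 arrays in a group, non-overlap is met more often by any feature.

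Same-numbered MPP and HSC arrays did not all deviate together (correlations of -0.07, 0.01 and 0.02 for the ratios, at most 0.09 for KO levels and 0.04 to 0.16 for WT levels). For WT levels, arrays of different numbers had correlations from -0.17 to 0.04. With so few arrays these values cannot settle whether same-numbered samples were paired. With a replicate block 0 respiratory genes passed. The calls over all features were 37 instead of 152 in KO cells and 0 instead of 122 in WT cells. The medians stayed at 0.58 and 0.45, which the block could not change, since both populations hold the same replicate numbers.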
